A study of Homo sapiens with 4 samples.

Results

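The 44 genes described here encode the route from glucose uptake to lactate, the hypoxia-inducible factors (HIFs) and a set of well known HIF targets. They were listed by name for their function, with earlier results of these data known, because doxycycline (Dox), the drug that switches on Cas9 in these cells, is known to shift cells toward glycolysis. All 44 were found among the 58302 genes of the deposited tables, and 43 of them were among the 16181 genes with enough reads to be tested. The study made MIB1-inducible knockout (MIB1-iKO) cells to ask how loss of the E3 ubiquitin ligase MIB1 relates to signaling by the TGF-β family. NCIH838 is a line from a human lung tumour of the non-small cell kind, and the MIB1-iKO cells derive from it by integration of a piggyBac transposon that carries a guide RNA against MIB1, a puromycin resistance gene and Cas9 under a Dox-responsive transactivator. RNA was sequenced from 4 samples at day 3, of which 2 received no dox and 2 received dox at 0.5 μg/mL for the 3 days. All samples carried the integrated construct, and the labels give the drug as the only difference between the groups.

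The MIB1-iKO lines were single-cell clones per the study's methods, and the labels do not say which clone or guide was sequenced. No cells that received Dox without a MIB1 guide were analysed here. Effects of Dox itself, of Cas9 cutting and of MIB1 loss therefore cannot be told apart in any value given here. The study calls the replicates biological. Neither it nor the labels say whether they were separate cultures of a clone, separate clones or separate days, so the p-values measure only the spread between these samples.

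Glycolysis breaks glucose down to pyruvate in the cytosol, and lactate dehydrogenase turns pyruvate into lactate when it does not enter mitochondria. HIFs are pairs of an oxygen-sensitive alpha subunit and a stable partner. With oxygen present, prolyl hydroxylases mark the alpha subunit for destruction, whereas in hypoxia it persists and switches on glucose transporters, most glycolytic enzymes and genes for new vessels and pH control. Tetracyclines such as Dox block the ribosomes of mitochondria, and cells so treated are known to lean more on glycolysis. Because HIF alpha subunits are controlled mainly as proteins, the mRNA of their targets is the usual readout of the pathway.

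No member passed the test between dox and no dox, and the median difference of the list was close to that of all genes. Reads come from whole cultures, so fewer cells that use a gene and less RNA per cell cannot be told apart. A call needed a limma adjusted p no larger than 0.05 together with a 2-fold difference or more, and 0 of the 43 tested members met it, against 0.0371% of all genes tested (0.0247% higher and 0.0124% lower with Dox). Without the requirement on fold the count in this fit, which has no covariates, was again 0 of 43, against 0.068% of all genes. That count was not the same under every alternative fit. Limma with a block for the replicate number gave 8 of 43 (18.6%), beside 7.13% of all genes. The 8 were ENO1, ALDOC, GAPDH, LDHB, SLC2A1, MXI1, LDHA and PDK1, none at a 2-fold difference. DESeq2 gave 1, PDK1 (2.33%, beside 0.185% of all genes). The last section gives the limits of the block. An unadjusted p under 0.05 was found for 5 members, or 11.6%, beside 9.28% of all genes. Of these, 3 were higher with Dox (4.68% of all genes) and 2 were lower (4.59%). They were MXI1, ALDOC and PFKFB3 on the higher side and PDK1 and SLC2A1 on the lower side. The member with the smallest adjusted p was PDK1 at 0.171 in limma. Without dox replicate 2 the count was 8 (2 higher and 6 lower), or 18.6% of members beside 5.33% of all genes in the same fit.

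The median log2 fold change of the 43 members, dox minus no dox, was -0.03, beside -0.0004 over all genes tested. It was positive for 18 members, or 41.9%, beside 49.9% of all genes. The median was -0.10 without no dox replicate 1, 0.02 without no dox replicate 2, 0.07 without dox replicate 1 and -0.11 without dox replicate 2, so its sign rests on single libraries. The members ranged from -0.50 (PDK1) to 0.50 (MXI1). Across the members, the 95% intervals of the log2 fold change reached down to -0.74 for PDK1 and up to 0.92 for HK2, so a 2-fold difference lay outside the interval of each tested member. These intervals are those of single genes, not adjusted for the number of members. With 2 libraries against 2, an exact permutation test of any single value could not go below p = 0.333, so the tests rest on limma's pooling of the spread over genes.

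**Figure D1:**
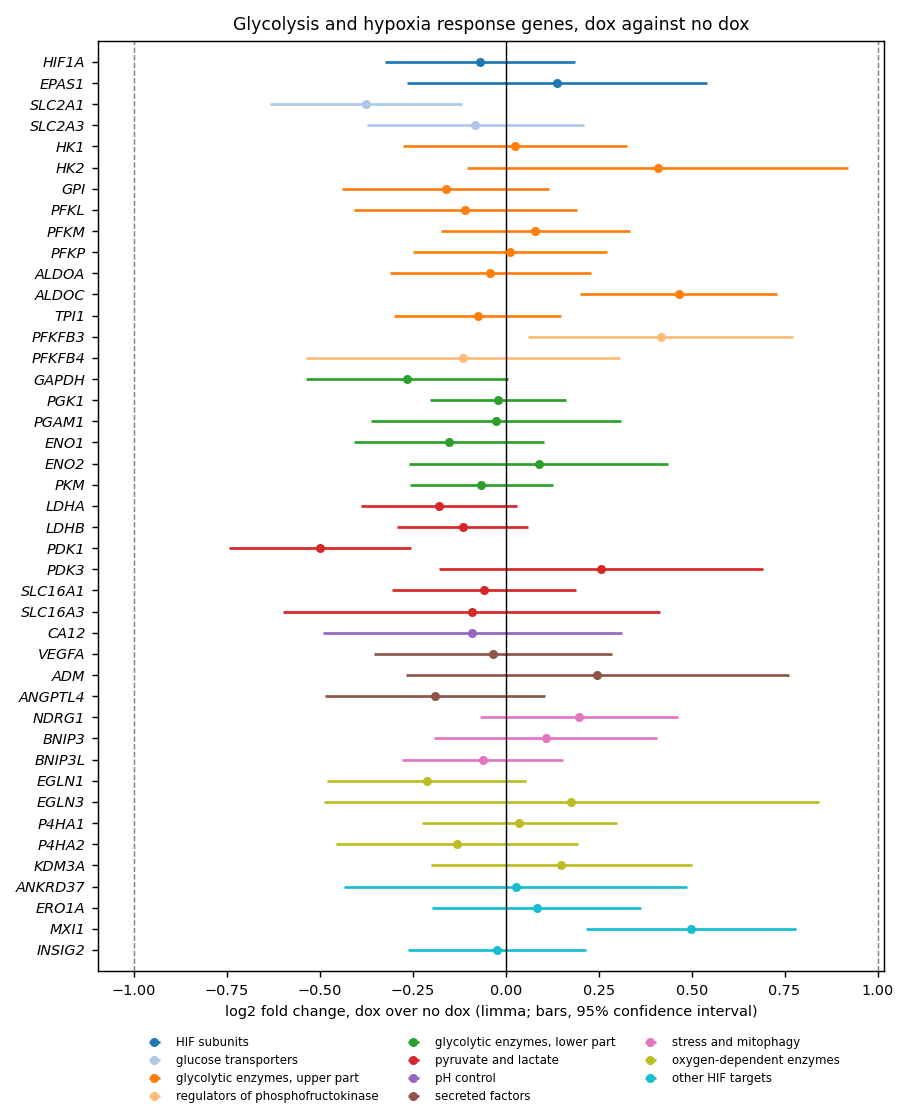
Log2 fold change of dox against no dox for each of the 43 tested members, grouped by role (points, limma on voom-weighted counts, with 95% intervals as bars). The values run from -0.50 for PDK1 to 0.50 for MXI1, and no interval reaches a 2-fold difference in either direction.

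HIF binds a short core in DNA, ACGTG or GCGTG, and the promoters of the members were read for it because HIF acts on its targets through such sites. Windows of 250 bases before the start sites of RefSeq were used (GRCh38.p14), with 39 of the 44 members having an entry. No entry was matched for BNIP3L, NDRG1, SLC16A1, SLC2A3 and VEGFA. Either core on either strand occurred in 84.6% of the 39 members and in 47.4% of all 27305 genes with an entry, taking any listed start site. The ACGTG core alone occurred in 61.5% of the members and 21.7% of all genes. A gene with several start sites has more windows, and per window the shares over all 35116 were 43.2% and 18.5%. For the members no share per window was taken, and HK1 and PFKM had 7 windows each. Many members are textbook HIF targets, and this count only describes the list. The palindrome CACGTG holds the ACGTG core once on each strand and was counted as 2 overlapping matches.

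The promoters of the 4 members with the smallest p follow, from 250 bases before the start site, 5′ to 3′ on the strand of the gene. Capitals mark each core, where CACGT and CACGC are the cores read on the opposite strand.
PDK1 promoter, chr2:172555840-172556089, plus strand: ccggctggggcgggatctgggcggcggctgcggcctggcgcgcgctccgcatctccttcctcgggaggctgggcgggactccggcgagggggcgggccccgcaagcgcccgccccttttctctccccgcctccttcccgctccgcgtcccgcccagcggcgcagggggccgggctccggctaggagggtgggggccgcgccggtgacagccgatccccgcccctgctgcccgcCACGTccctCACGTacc
SLC2A1 promoter, chr1:42958869-42959118, minus strand: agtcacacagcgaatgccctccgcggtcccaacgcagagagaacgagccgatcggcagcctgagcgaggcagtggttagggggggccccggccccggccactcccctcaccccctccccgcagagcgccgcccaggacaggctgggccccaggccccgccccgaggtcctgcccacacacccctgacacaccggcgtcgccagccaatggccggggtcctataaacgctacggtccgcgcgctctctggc
ALDOC promoter, chr17:28576896-28577145, minus strand: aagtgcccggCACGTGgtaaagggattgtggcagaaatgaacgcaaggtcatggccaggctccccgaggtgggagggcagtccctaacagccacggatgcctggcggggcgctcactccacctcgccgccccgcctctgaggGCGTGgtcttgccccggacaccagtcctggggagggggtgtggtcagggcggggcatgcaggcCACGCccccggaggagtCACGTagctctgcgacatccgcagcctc
MXI1 promoter, chr10:110209981-110210230, plus strand: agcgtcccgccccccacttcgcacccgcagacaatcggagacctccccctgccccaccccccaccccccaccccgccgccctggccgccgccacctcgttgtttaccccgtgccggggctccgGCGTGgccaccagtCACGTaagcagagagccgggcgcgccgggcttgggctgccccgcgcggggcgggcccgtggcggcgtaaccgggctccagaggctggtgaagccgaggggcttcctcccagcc

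The windows of the 2 lower genes held 2 cores (PDK1) and 0 cores (SLC2A1), and those of the 2 higher genes held 5 (ALDOC) and 2 (MXI1). PDK1 has 2 listed start sites and MXI1 has 3, and the window with the most matches is shown for each. The absence of a core in the SLC2A1 window says only that these letters are not in these 250 bases. Members with an ACGTG core in any window had a median log2 fold change of 0.01, with 12 of 23 tested members positive. Members with an entry but without that core had a median of -0.07, with 5 of 15 positive. A match is a description of the sequence and not a measured binding site.

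The libraries held 15943025 to 24398411 reads, with both dox libraries below both no dox libraries, and 3 reads were taken as the limit that a count of 0 allows. MIB1, the targeted gene, had 598 and 588 reads without Dox against 90 and 59 with it, a log2 fold change of -2.58 ± 0.23 (SE) with an adjusted p of 0.000375 in limma, and so the groups follow their labels. Of the 5 epithelial markers, EPCAM, CDH1, KRT8 and KRT18 were read in every library and KRT19 was at 0 reads. Their log2 fold changes went both ways, at 0.13 and 0.25 for EPCAM and CDH1, and at -0.34 and -0.41 for KRT8 and KRT18, the latter pair at an unadjusted p under 0.05. The lung markers NKX2-1, SFTPB and SCGB1A1 were at 0 reads and NAPSA and SFTPC at 8 or fewer, so the defining lung genes were absent or nearly so. The part of these markers in the values of the members was not tested. PTPRC, the marker of blood cells, and COL1A2, a collagen of fibroblasts, were at 0 reads in all 4 libraries, and the endothelial markers had 10 reads or fewer.

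The members together took 1.75% and 1.88% of all reads without Dox and 1.62% and 1.80% with Dox. LDHB alone, the lactate dehydrogenase subunit that favours turning lactate back to pyruvate, accounted for 0.700% and 0.729% without Dox and 0.639% and 0.714% with Dox. Per gene length, expression is given as RPKM, a read density in which gene length and depth are divided out. On that scale LDHB stood at rank 3 of all genes and ENO1, the main enolase, at rank 24. CA9, the tumour carbonic anhydrase whose induction is a textbook sign of hypoxia, was at the other end with 4 and 14 reads without Dox against 6 and 7 with it, too few to be tested. The no dox and dox libraries overlapped for CA9. Of its exon bases 35.7% overlap ARHGEF39 on the opposite strand, which had 287 to 432 reads a library, so these few reads cannot be assigned to CA9 with certainty.

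**Figure D2:**
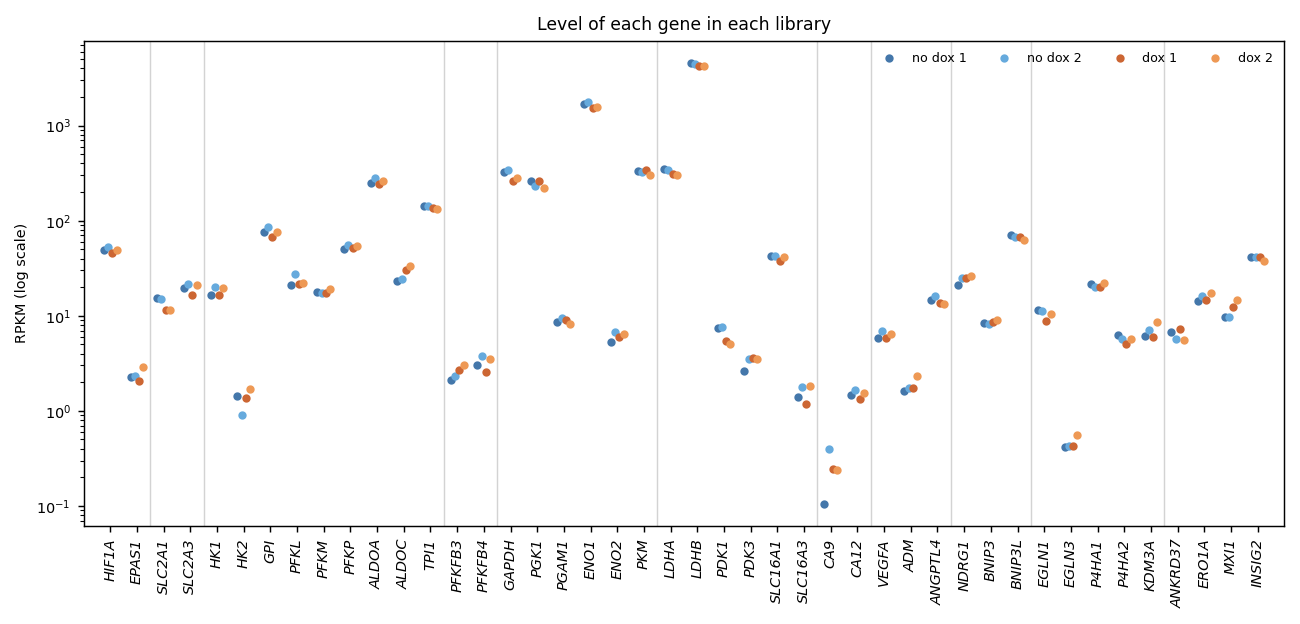
RPKM of each member in each library on a log axis, with no dox and dox libraries as separate symbols and genes grouped by role. LDHB and ENO1 stand at the top and CA9 at the bottom, and for most members the 4 symbols lie close together.

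The HIF alpha subunits differed by less than the spread between libraries. HIF1A (chr14:61695513-61748259, plus strand, GRCh38) encodes HIF-1α, the subunit that drives most glycolytic targets, and had 4889 and 4889 reads without Dox against 2990 and 3815 with it. This corresponds to 48.9 and 52.5 RPKM without Dox and 46.1 and 49.5 RPKM with Dox, with overlapping groups. Its log2 fold change was -0.07 ± 0.12 (SE, 95% interval -0.32 to 0.19, limma adjusted p = 0.903). EPAS1 (chr2:46293667-46386697, plus strand) encodes HIF-2α and had 274 and 262 reads without Dox against 164 and 269 with it, or 2.26 and 2.32 RPKM without Dox and 2.08 and 2.87 RPKM with Dox. Dox replicate 2 was the highest and dox replicate 1 the lowest of the 4, and the log2 fold change was 0.14 ± 0.19 (adjusted p = 0.874 in limma). Of the summed RPKM of the pair, HIF1A took 95.6% and 95.8% without Dox and 95.7% and 94.5% with Dox.

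Glucose enters cells through the facilitated transporters GLUT1 (SLC2A1) and GLUT3 (SLC2A3). SLC2A1 (chr1:42925353-42958893, minus strand) had 1437 and 1310 reads without Dox against 694 and 824 with it, which gave 15.4 and 15.03 RPKM without Dox and 11.4 and 11.4 RPKM with Dox. Both dox libraries were below both no dox libraries on the RPKM scale. The log2 fold change of SLC2A1 was -0.38 ± 0.12 (SE, 95% interval -0.63 to -0.12), and with an unadjusted p of 0.00759 it reached an adjusted p of 0.3498 in limma's fit over all genes. SLC2A3 had 1795 and 1833 reads without Dox against 999 and 1500 with it, or 19.5 and 21.4 RPKM without Dox and 16.7 and 21.1 RPKM with Dox, and here the groups overlapped. Its log2 fold change came to -0.08 ± 0.14 (adjusted p = 0.9005, limma). Reads of SLC2A3 are partly uncertain, because 22.9% of the 50-base stretches of the transcript examined occur elsewhere in the genome.

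Of the enzymes from glucose to triose phosphates, 9 were tested, with log2 fold changes from -0.16 (GPI) to 0.47 (ALDOC) and a median of 0.01. Hexokinase traps glucose in the cell as its phosphate. HK2, the form bound to mitochondria in many tumours, had 201 and 117 reads without Dox against 123 and 181 with it, or 1.44 and 0.8997 RPKM without Dox and 1.36 and 1.68 RPKM with Dox. No dox replicate 2 was the lowest and the groups overlapped, and the log2 fold change of 0.41 ± 0.24 (SE, 95% interval -0.10 to 0.92) had an adjusted p of 0.641 in limma. It was 0.08 without no dox replicate 2 and 0.76 without no dox replicate 1. HK1, the hexokinase that most tissues use, was at 18.3 ± 2.595 RPKM without Dox and 18.1 ± 2.21 with Dox (mean ± SD, n = 2 each). GPI, which turns glucose phosphate into fructose phosphate, was at 76.4 and 86.1 RPKM without Dox and 67.7 and 76.6 RPKM with Dox.

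The phosphofructokinases PFKL, PFKM and PFKP commit sugar to glycolysis, and their log2 fold changes were -0.11, 0.08 and 0.01. PFKP was the most abundant of the 3 per length, with 49.8 and 56.1 RPKM without Dox and 51.3 and 54.5 RPKM with Dox. Of its activators, PFKFB3 makes the fructose bisphosphate that stimulates the enzyme and is itself a HIF target. PFKFB3 (chr10:6144934-6254644, plus strand) had 267 and 274 reads without Dox against 223 and 300 with it, or 2.09 and 2.299 RPKM without Dox and 2.69 and 3.04 RPKM with Dox. Both dox values were above both no dox values. Its log2 fold change was 0.42 ± 0.17 (SE, 95% interval 0.06 to 0.77), with an unadjusted p of 0.0252 and a limma adjusted p of 0.452. The unadjusted p of PFKFB3 was under 0.05 in 7 of 11 alternatives. PFKFB4, its relative, had a log2 fold change of -0.12 and 3.04 and 3.73 RPKM without Dox and 2.58 and 3.54 RPKM with Dox, with overlapping groups.

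Aldolase splits the sugar bisphosphate into triose phosphates, and its forms differed in direction. ALDOC (chr17:28573115-28576948, minus strand), the aldolase best known from brain, had 1100 and 1082 reads without Dox against 942 and 1220 with it. Per length this was 22.97 and 24.3 RPKM without Dox and 30.3 and 33.02 RPKM with Dox, with both dox libraries above both no dox libraries. Of the 4 promoters printed, that of ALDOC held the most cores, at 5, with its CACGTG counted as 2. Among the other members, windows of HK2 and BNIP3 held 6, and 1 of LDHA, with a log2 fold change of -0.18, held 5. A link between cores and differences was not tested. The log2 fold change of ALDOC was 0.47 ± 0.12 (SE, 95% interval 0.20 to 0.73), its unadjusted p 0.00206 and its adjusted p 0.247 in limma. ALDOA, the major form, stood at 249 and 278 without Dox and 246 and 262 with Dox on the RPKM scale, with a log2 fold change of -0.04 ± 0.13 (SE) and overlapping groups. TPI1, which interconverts the triose phosphates, was at 142 and 142 RPKM without Dox and 135 and 132 RPKM with Dox with a log2 fold change of -0.08.

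The lower enzymes, from glyceraldehyde phosphate to pyruvate, had log2 fold changes between -0.27 (GAPDH) and 0.09 (ENO2), and 5 of the 6 were negative. GAPDH, the dehydrogenase widely used as a reference gene, had 16804 and 16622 reads without Dox against 8781 and 11470 with it. Its levels were 322 and 342 RPKM without Dox and 259 and 284 RPKM with Dox, so that both dox libraries were the lower ones. The log2 fold change was -0.27 ± 0.13 (SE, 95% interval -0.54 to 0.01) with an adjusted p of 0.55 in limma. Leaving out dox replicate 1 gave -0.06 and leaving out dox replicate 2 gave -0.48. For GAPDH, 24.3% of the 50-base stretches of the transcript have another copy in the genome, and its 65 annotated pseudogenes held reads equal to 28.5% to 32.1% of those of GAPDH itself.

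ENO1, the abundant enolase, was at 1699 and 1761 RPKM without Dox and 1540 and 1564 RPKM with Dox, lower in both dox libraries, and ENO2, the neuronal form that HIF-1 also induces, was at 5.25 and 6.67 without Dox and 5.96 and 6.42 with Dox on the same scale. Their log2 fold changes were -0.15 ± 0.12 and 0.09 ± 0.16 (SE). PGK1, which makes the first ATP of the pathway and is a standard HIF-1 target, was at 261 and 229 RPKM without Dox and 259.9 and 219 RPKM with Dox, with a log2 fold change of -0.02 and a limma adjusted p of 0.965. PKM, the pyruvate kinase of most tissues, was at 335 and 324 RPKM without Dox and 342 and 299.7 RPKM with Dox, and its log2 fold change was -0.07. PGAM1, the phosphoglycerate mutase, had only 373 and 378 reads without Dox against 253 and 274 with it. For PGAM1 90.7% of the 50-base stretches recur elsewhere in the genome, so its level is uncertain, and its log2 fold change was -0.03.

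At the exit of the pathway, LDHA, the lactate dehydrogenase subunit that HIF-1 induces, had 24556 and 22173 reads without Dox against 13996 and 16349 with it. This was 352 and 341 RPKM without Dox and 309 and 304 RPKM with Dox, with both dox libraries lower. Its log2 fold change of -0.18 ± 0.10 (SE, 95% interval -0.39 to 0.03) had an adjusted p of 0.613 in limma. LDHB was more abundant than LDHA in every library, at 4582 and 4451 RPKM without Dox and 4213 and 4235 RPKM with Dox, and its log2 fold change was -0.12 ± 0.08 (SE, adjusted p = 0.711, limma). SLC16A1 (MCT1) and SLC16A3 (MCT4) carry lactate across the membrane, the latter being the HIF-inducible exporter. SLC16A1 was at 42.5 and 42.2 RPKM without Dox and 37.97 and 42 RPKM with Dox, and SLC16A3 was far below it at 1.41 and 1.79 without Dox and 1.18 and 1.83 with Dox. Their log2 fold changes were -0.06 and -0.09. The low level of SLC16A3 is given with the limit that 5.22% of its exon bases overlap CSNK1D on the opposite strand.

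Pyruvate dehydrogenase kinases switch off the enzyme that feeds pyruvate to mitochondria, and PDK1 is one that HIF-1 raises in hypoxia. PDK1 (chr2:172555373-172608669, plus strand) had 2501 and 2351 reads without Dox against 1167 and 1295 with it. Its RPKM were 7.47 and 7.54 without Dox and 5.37 and 5.01 with Dox, and the groups did not overlap. With a log2 fold change of -0.50 ± 0.11 (SE, 95% interval -0.74 to -0.25) and an unadjusted p of 0.000613, PDK1 had the smallest p of the members, and its adjusted p was 0.171 in limma. DESeq2 gave PDK1 an adjusted p of 0.0438 and edgeR one of 0.124, with the difference under 2-fold in both. Limma with a block for the replicate number gave PDK1 an adjusted p of 1.9e-06, also under 2-fold. PDK3, a kinase of the same family, pointed the other way at 2.64 and 3.51 RPKM without Dox and 3.58 and 3.53 RPKM with Dox, with a log2 fold change of 0.26 ± 0.20 (SE) and an adjusted p of 0.743 in limma. Both dox values of PDK3 were only just above the higher no dox value.

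**Figure D3:**
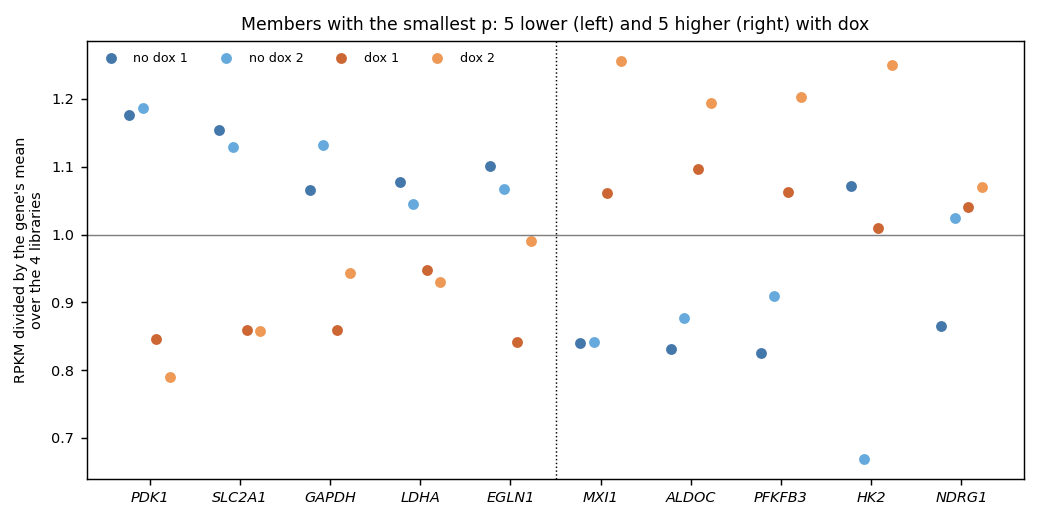
RPKM of a library divided by the gene's mean over the 4 libraries, for the 5 members with the smallest p on the lower side (left of the dotted line) and the 5 on the higher side (right), one point a library. PDK1 and SLC2A1 are lower in both dox libraries, whereas MXI1, ALDOC and PFKFB3 are higher in both, and the groups overlap for HK2.

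The remaining HIF targets included secreted factors, regulators of HIF and stress genes. VEGFA, the growth factor for vessels, had 519 and 576 reads without Dox against 334 and 444 with it, or 5.86 and 6.98 RPKM without Dox and 5.82 and 6.501 RPKM with Dox. With overlapping groups, its log2 fold change was -0.03 ± 0.15 (SE, 95% interval -0.35 to 0.29, adjusted p = 0.967 in limma). The peptide hormone ADM was at 1.63 and 1.75 RPKM without Dox and 1.74 and 2.31 RPKM with Dox and the lipase inhibitor ANGPTL4 at 14.8 and 16.3 without Dox and 13.5 and 13.2 with Dox. Their log2 fold changes were 0.25 and -0.19. Of the pH regulators, CA12 was at 1.48 and 1.64 RPKM without Dox and 1.33 and 1.55 RPKM with Dox with a log2 fold change of -0.09.

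EGLN1 (PHD2) is the main prolyl hydroxylase that marks HIF alpha subunits for destruction, and EGLN3 (PHD3) is its strongly HIF-inducible relative. EGLN1 had 1932 and 1743 reads without Dox against 957 and 1340 with it, or 11.6 and 11.2 RPKM without Dox and 8.85 and 10.4 RPKM with Dox, lower in both dox libraries. Its log2 fold change was -0.21 ± 0.13 (SE, 95% interval -0.48 to 0.06) and its adjusted p 0.643 in limma. EGLN3 had 48 and 46 reads without Dox against 32 and 49 with it, few enough that its log2 fold change of 0.18 ± 0.31 (SE) carries a wide error. P4HA1 and P4HA2, the collagen prolyl hydroxylases, had log2 fold changes of 0.04 and -0.13, and the histone demethylase KDM3A one of 0.15. None of these 5 enzymes, which all use oxygen, had an unadjusted p under 0.05.

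Among stress and mitophagy genes, NDRG1 was the one with the smallest p. It had 1853 and 2043 reads without Dox against 1444 and 1767 with it, or 20.97 and 24.8 RPKM without Dox and 25.2 and 25.9 RPKM with Dox, and the dox values exceeded the no dox values by less than the gap between the no dox replicates. NDRG1 had a log2 fold change of 0.20 ± 0.12 (SE, 95% interval -0.07 to 0.46) and an adjusted p of 0.671 in limma. BNIP3 and BNIP3L, receptors that send mitochondria to autophagy, were at 8.23 ± 0.165 and 69.2 ± 2.997 RPKM without Dox (mean ± SD, n = 2), and at 8.81 ± 0.3301 and 65.3 ± 3.14 with Dox. Their log2 fold changes were 0.11 and -0.06. BNIP3 has 44 annotated pseudogenes, whose reads came to 19.3% to 22.2% of its own.

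MXI1, a MAX partner that opposes MYC and is induced by HIF, had the highest log2 fold change of all members. MXI1 (chr10:110207605-110287365, plus strand) had 932 and 871 reads without Dox against 765 and 1076 with it, or 9.79 and 9.82 RPKM without Dox and 12.4 and 14.7 RPKM with Dox. Both dox libraries were above both no dox libraries, with dox replicate 2 the highest. The log2 fold change was 0.50 ± 0.13 (SE, 95% interval 0.22 to 0.78), the unadjusted p 0.00194 and the adjusted p 0.246 in limma. The other 3 genes of that group were nearer to 0, namely ERO1A, an oxidase of the endoplasmic reticulum, at 0.08, ANKRD37 at 0.03 and INSIG2, which restrains sterol synthesis, at -0.02. ANKRD37 shares 40.4% of its exon bases with UFSP2 on the opposite strand, and how the counting treated strand is not known.

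On the RPKM scale the groups did not overlap for 16 of the 43 members, or 37.2%, beside 38.6% of all genes tested. Of these, 6 were higher with Dox (18.1% of all genes) and 10 were lower (20.5% of all genes). The higher ones were ALDOC, NDRG1, MXI1, BNIP3, PDK3 and PFKFB3. The lower ones were LDHB, ENO1, LDHA, GAPDH, TPI1, SLC16A1, ANGPTL4, SLC2A1, EGLN1 and PDK1. As shares of the members these counts were 14.0% and 23.3%.

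The libraries also differed within groups. Measured as the median deviation of the members from their own mean over the 4 libraries, in log2 units, no dox replicate 1 stood at -0.04, no dox replicate 2 at 0.07, dox replicate 1 at -0.11 and dox replicate 2 at 0.09. The replicates of each group were thus on opposite sides of 0, and the gap between the dox replicates exceeded the median difference between the groups.

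Where several members encode the same step, the share of each in their summed RPKM was taken, without a test. These shares leave out forms that are not members, and shares with the further forms named here were added after the data were seen. Of lactate dehydrogenase, LDHB took 92.9% and 92.9% without Dox and 93.2% and 93.3% with Dox. Aldolase was mostly ALDOA, and ALDOC supplied 8.46% and 8.01% without Dox and 10.99% and 11.2% with Dox, averaging 8.23% ± 0.313 without Dox and 11.1% ± 0.132 with Dox (SD, n = 2 each). Its groups were apart by more than the gap within either. The share of PDK1 in the sum of PDK1 and PDK3 was 73.9% and 68.2% without Dox and 60.03% and 58.6% with Dox, lower in both dox libraries. Counting PDK2 and PDK4 as well, PDK1 took 43.1% and 39.8% without Dox and 27.5% and 29.6% with Dox, and PDK4 took 20.5% and 22.4% without Dox and 31.5% and 30.6% with Dox. SLC2A3 took 55.96% and 58.7% without Dox and 59.4% and 64.9% with Dox of the GLUT1 and GLUT3 sum, with a mean of 57.3% ± 1.96 without Dox and 62.2% ± 3.899 with Dox (SD, n = 2 each). With SLC2A6, SLC2A8, SLC2A10 and SLC2A12 included, SLC2A3 took 32.9% and 34.8% without Dox and 32.7% and 38.1% with Dox, and the groups overlapped.

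Among the members, the leading form was the same in all 4 libraries for most other families. HK1 took 93.8% ± 2.66 without Dox and 92.3% ± 0.201 with Dox of the sum of HK1 and HK2 (mean ± SD, n = 2 each). HKDC1, a hexokinase that is no member, was more abundant than HK2, and with HKDC1 and HK3 counted HK1 took 61.7% ± 1.65 without Dox and 60.2% ± 0.0738 with Dox, and HKDC1 34.3% ± 0.107 and 34.7% ± 0.222 (SD, n = 2 each). PFKP took 55.7% ± 0.435 without Dox and 56.8% ± 0.268 with Dox of phosphofructokinase. ENO1 took 99.7% ± 0.0492 without Dox and 99.6% ± 0.0167 with Dox of the sum with ENO2, and 99.0% ± 0.0259 and 98.9% ± 0.0935 once ENO3, which was above ENO2, was added (SD, n = 2 each). SLC16A1 made up 96.4% ± 0.618 without Dox and 96.4% ± 0.828 with Dox of the lactate transporter pair. EGLN1 supplied 96.4% ± 0.148 without Dox and 95.2% ± 0.292 with Dox of its pair with EGLN3, and 87.6% ± 1.89 and 87.5% ± 0.0374 with EGLN2 added. Between PFKFB3 and PFKFB4 the lead was not fixed, and the share of PFKFB3 was 40.7% and 38.1% without Dox and 51.02% and 46.2% with Dox, higher in both dox libraries. P4HA1 took 77.9% ± 0.473 without Dox and 79.6% ± 0.516 with Dox of the collagen prolyl hydroxylase pair. A share of RPKM depends on the gene lengths the authors used, and counted as reads the share of PDK1 was 93.3% without Dox and 89.2% with Dox, still the lower with Dox.

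**Figure D4:**
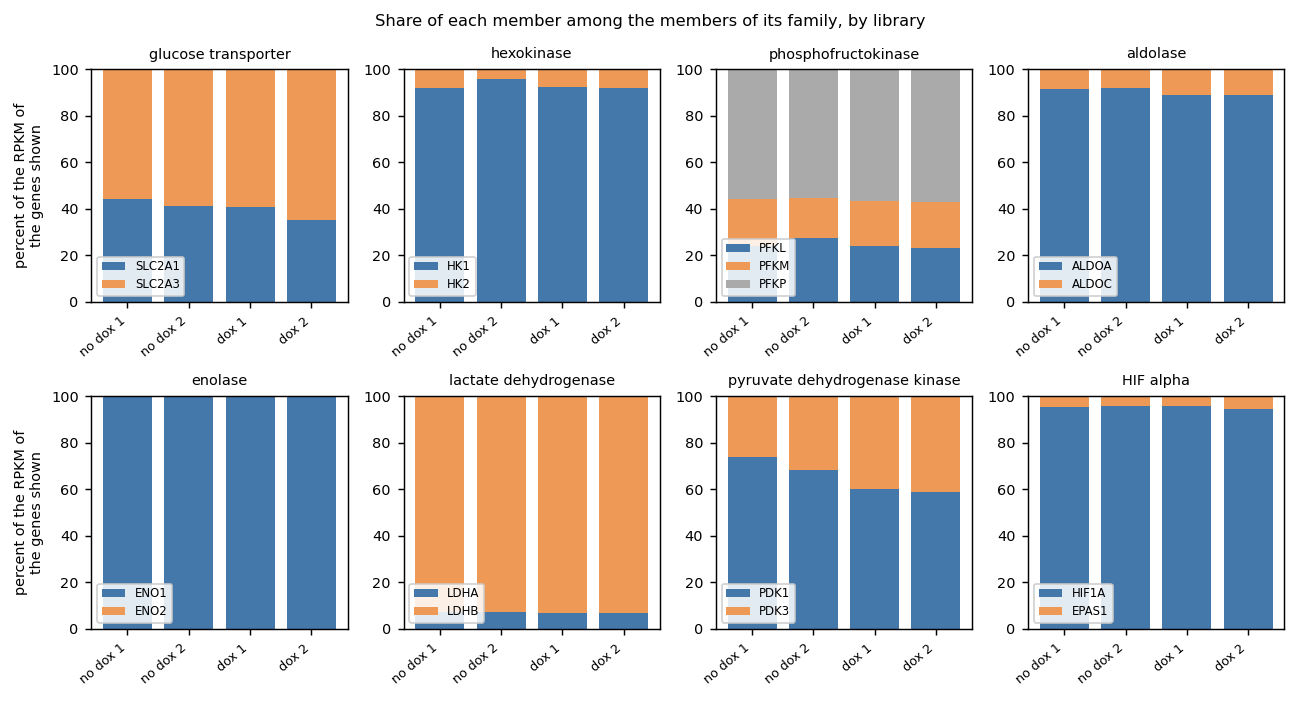
Share of each member in the summed RPKM of the members of its family, in percent, one panel a family and one stacked bar a library. Of the members shown, LDHB, HK1, ENO1 and ALDOA lead in all 4 libraries, and the PDK1 share is lower and the ALDOC share higher in both dox libraries.

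Copies of a gene elsewhere in the genome limit how well its reads can be placed. Of the 44 members, 20 had no repeated 50-base stretch in GRCh38 in the transcript examined, the longest that GENCODE classes as protein coding, which for 11 members is shorter than the longest of any class. After PGAM1 the largest shares were 32.4% for TPI1, 24.3% for GAPDH, 22.9% for SLC2A3, 16.7% for LDHA, 15.5% for HK2 and 11.6% for BNIP3. Reads assigned to pseudogenes of TPI1 came to 59.6% to 63.2% of the reads of TPI1. For LDHA the same figure was 6.75% to 7.73% and for LDHB 2.69% to 2.79%. The 4 members with the smallest p were little touched by copies, with 1.36% for PDK1 and 0.0% for SLC2A1, ALDOC and MXI1.

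**Figure D5:**
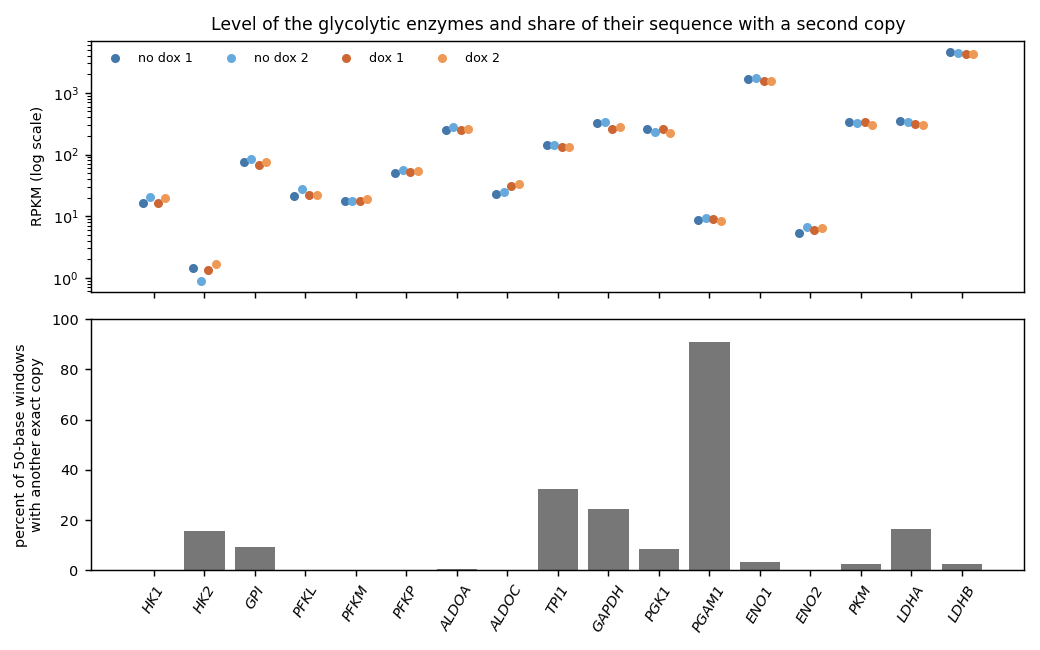
For the glycolytic enzymes and LDHA and LDHB, RPKM in each library on a log axis (top, one point a library) and the percent of 50-base windows of the transcript with another exact copy in the genome (bottom, bars). PGAM1 has the tallest bar at 90.7%, followed by TPI1 at 32.4% and GAPDH at 24.3%, and ALDOC has none.

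The rest of glycolysis and the HIF pathway, taken from lists of further genes, gave no called gene either. Of 23 other glycolysis genes 17 were tested, with a median log2 fold change of 0.04. An unadjusted p under 0.05 was found for 5 on the higher and 2 on the lower side. Over all genes tested the shares were 4.68% higher and 4.59% lower. The lowest p on the higher side were those of PGAM2, the muscle phosphoglycerate mutase, at 0.96 ± 0.21 (adjusted p = 0.167) and of SLC2A10, a transporter, at 0.98 ± 0.22 (SE, adjusted p = 0.174, limma). On the lower side they were the transporter SLC2A8 at -0.71 ± 0.20 and the glucose phosphatase G6PC3 at -0.33 ± 0.14 (SE). PGAM2 had 97 and 96 reads without Dox against 130 and 145 with it, and SLC2A10 had 83 and 95 reads without Dox against 122 and 134 with it. Both dox values were above both no dox values for each.

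The 12 genes for the entry of pyruvate into mitochondria had a median log2 fold change of -0.07. At an unadjusted p under 0.05, 1 was higher and 2 were lower, beside 4.68% and 4.59% of all genes tested. PDK4, the kinase raised by fasting and fatty acids, stood at 0.57 ± 0.16 (SE, limma adjusted p = 0.305), with 298 and 332 reads without Dox against 336 and 335 with it. The pyruvate carrier subunit MPC2 followed at 0.19, and on the lower side were pyruvate carboxylase PC at -0.32 and the phosphatase PDP1 at -0.26. PDK1 and PDK4, enzymes of the same step, thus lay on opposite sides of 0.

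The machinery around HIF had 12 of 13 genes tested, with a median of -0.08. None had an unadjusted p under 0.05, beside 9.28% of all genes tested. On the higher side the smallest p were those of ARNT, the stable partner of HIF alpha, at 0.24 ± 0.11 (SE), and ELOB, a part of the ligase that removes HIF alpha, at 0.10 ± 0.11. On the lower side they were those of ARNT2 at -0.78 ± 0.41 and EGLN2 at -0.42 ± 0.29 (SE). Of 34 further HIF targets 32 were tested, and the median was -0.01. An unadjusted p under 0.05 was found for 3 on each side, beside 4.68% higher and 4.59% lower of all genes tested. The transferrin receptor TFRC had the smallest p of the list at -0.52 ± 0.11 (SE, limma adjusted p = 0.166). The next on the lower side was LOXL2 at -0.36, and on the higher side were LOX at 0.98 ± 0.35 (SE) and DUSP1 at 0.32. LOX had few reads, 24 and 37 without Dox against 45 and 44 with it, and its adjusted p was 0.394 in limma.

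The 13 mRNAs encoded by mitochondrial DNA were counted because Dox acts on the ribosomes of that organelle. The log2 fold change was above 0 for 11 of them, and its median was 0.15. An unadjusted p under 0.05 was found for 5 of the 13, all higher with Dox, beside 4.68% of all genes tested. On the RPKM scale 8 of the 13 lay above the no dox libraries in both dox libraries, beside 18.1% of all genes tested. None passed the test. MT-ND3, a subunit of complex I, stood at 0.52 ± 0.15 (SE, adjusted p = 0.302, limma) with 46.9 and 45.7 RPKM without Dox and 64.5 and 66.01 RPKM with Dox. MT-CYB, of complex III, stood at 0.41 ± 0.11 (SE, adjusted p = 0.273, limma) with 191 and 207 RPKM without Dox and 266 and 258 RPKM with Dox. They are cut from shared precursors and so are not independent of each other.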

How the data were processed

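RNA was sequenced from MIB1-iKO NCIH838 cells, 2 no dox and 2 dox samples at day 3, with groups and replicate numbers taken from the sample labels. Per the study's methods, the authors discarded ribosomal reads, used GSNAP to align to GRCh38, and took exon counts from HTSeqGenie. The deposited counts are whole reads per gene, not normalized. The authors also deposited RPKM, scaled by gene length, by depth and by a further factor per library. Relative to no dox replicate 1, the divisors of reads in the RPKM were 0.932, 0.649 and 0.771, whereas the totals stood at 0.869, 0.653 and 0.699. Both are in the order no dox replicate 2, dox replicate 1, dox replicate 2. The sources name a RefSeq annotation whereas the identifiers are Ensembl, and they do not say which of the kits described was used or whether counting used strand, so reads over antisense genes and copies are uncertain.

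Identifiers were matched to GENCODE release 44. Genes were kept by filterByExpr (16181 of 58302). Following the study's methods, voom with quantile normalization and limma 3.58.1 under R 4.3.3 compared dox with no dox without covariates, with Benjamini-Hochberg adjustment over all genes tested and a call where the adjusted p was no larger than 0.05 and the difference 2-fold or more (a log2 fold change of 1 in either direction). Errors are limma's moderated SE, and SDs of RPKM are over 2 libraries. Totals ranged from 15943025 to 24398411 reads. The limit of 3 reads at a count of 0 covers counting error only, since PCR reads without molecular identifiers are not independent molecules. Every pair of libraries differed by more than sampling noise (chi-square per degree of freedom of 8.18 or more). The fit was tested on simulated data with 200 changed genes. Alternatives were edgeR 4.0.16, DESeq2 1.42.0, other scalings and filters, limma on log2 RPKM with 0.1 or 1 added, a block for the replicate number, thinning to the smallest total, removal of GC and length trends, and leaving out each library.

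Every member is named. Full statistics are given for HIF1A, EPAS1, SLC2A1, SLC2A3, HK2, LDHA, PDK1, CA9 and VEGFA, for any member with an adjusted p of at most 0.05, and for the 5 with the smallest p in each direction. From other lists the 2 with the smallest p in each direction are named, and in the mitochondrial list the 2 on the higher side. The members, the other lists and the markers were chosen with earlier results of these data known. A gene of the other lists is not reported here. Promoter windows come from a RefSeq table (GRCh38.p14), and repeated 50-base stretches were counted by exact match of each member's longest transcript of the GENCODE class protein coding to GRCh38.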

Additional observations from a re-analysis of the deposited data

How the results depend on the processing

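The call of 0 members held under each of the alternatives run. No member reached a call with edgeR, DESeq2, voom with TMM or library size only, either filter, either RPKM scale, thinning, removal of GC and length trends, the replicate block or any library left out. The count over all genes was less stable. It was 6 as reported, 2 with DESeq2 (which gave no adjusted p to 3 of the 6), 78 with the replicate block, 11 by adjusted p without the fold requirement, and 0 without a filter, on log2(RPKM + 0.1) and on log2(RPKM + 1). The cause was not tested. With any 1 library left out it was 0, where 1 sample is left in a group and is assumed to vary like the others. Members at an unadjusted p under 0.05 numbered 4 to 8 with a library left out (9.30% to 18.6%, beside 5.15% to 6.44% of all genes), and the highest was without dox replicate 2.

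The replicate numbers were used as a block only as an alternative, since nothing in the labels ties same-numbered samples together and there are only 2 pairs. The deviations of same-numbered libraries correlated with r = 0.13 over 16181 genes. Chi-square per degree of freedom was 8.26 and 8.18 for same-numbered libraries, 9.34 within no dox and 13.1 within dox. It was 15.8 and 15.9 between no dox and dox libraries of unlike number. This measure rises with depth and the no dox libraries were the deepest. The same-numbered libraries therefore cannot be called closer than the no dox replicates. Their values were, however, below the 13.1 within dox, although the dox libraries were the shallowest. They were also below both values for no dox and dox libraries of unlike number. What a replicate number shares is not known, and the unblocked fit is thus only 1 of 2 readings of the design. With the replicate block 13 members (30.2%, beside 20.2% of all genes) had an unadjusted p under 0.05, and 8 members (18.6%, beside 7.13% of all genes) reached an adjusted p of at most 0.05 in limma. These were ENO1, ALDOC, GAPDH, LDHB, SLC2A1, MXI1, LDHA and PDK1 (adjusted p = 1.9e-06), none at a 2-fold difference.

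Of 472 values of members under the other alternatives 461 kept their direction. The exceptions, all near 0 on the log2 scale, were HK1 with edgeR (-0.0099), DESeq2 (-0.0037), voom with TMM (-0.0074), log2(RPKM + 0.1) (-0.015) and log2(RPKM + 1) (-0.014), PFKP on the same RPKM scales (-0.0006 and -0.0007) and with thinning (-0.0042), PGAM1 with thinning (0.032), and PGK1 and INSIG2 with GC and length trends removed (0.008 and 0.022). With a library left out 34 of 172 values turned, in 23 members. Those log2 fold changes ran from -0.20 to 0.052 for HIF1A, -0.10 to 0.37 for EPAS1, -0.27 to 0.10 for SLC2A3, -0.14 to 0.18 for HK1, -0.33 to 0.0087 for GPI, -0.32 to 0.091 for PFKL, -0.11 to 0.14 for PFKP, -0.22 to 0.13 for ALDOA, -0.35 to 0.11 for PFKFB4, -0.089 to 0.034 for PGAM1, -0.33 to 0.060 for ENO1, -0.089 to 0.26 for ENO2, -0.20 to 0.0 for LDHB, -0.20 to 0.072 for SLC16A1, -0.44 to 0.24 for SLC16A3, -0.21 to 0.022 for CA12, -0.15 to 0.073 for VEGFA, -0.026 to 0.37 for EGLN3, -0.046 to 0.12 for P4HA1, -0.12 to 0.41 for KDM3A, -0.15 to 0.21 for ANKRD37, -0.065 to 0.23 for ERO1A and -0.059 to 0.018 for INSIG2. The members PDK1, MXI1, ALDOC, SLC2A1 and PFKFB3 kept their direction with every library left out, as did HK2 (0.079 to 0.76), GAPDH (-0.48 to -0.058), LDHA (-0.27 to -0.079), NDRG1 (0.060 to 0.33) and EGLN1 (-0.35 to -0.081), whose values moved by over 1.5 times.

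Isozyme shares depend on the scale, since RPKM divides by length. By reads, without Dox and with Dox, they were 94.8% and 94.1% for HIF1A, 58.3% and 59.2% for PFKP, 95.8% and 94.3% for ALDOA, 99.4% and 99.3% for ENO1, 87.4% and 88.0% for LDHB, and 93.3% and 89.2% for PDK1, and HK1 with Dox was at 89.6%. Adding the reads of pseudogenes gave 94.8% and 94.1% for HIF1A, 95.9% and 94.4% for ALDOA, 99.4% and 99.3% for ENO1, 87.0% and 87.6% for LDHB, and 89.2% for HK1 with Dox. With the further forms named in the report counted, an alternative chosen after seeing the data, the RPKM shares without and with Dox were 33.9% and 35.4% for SLC2A3, 61.7% and 60.2% for HK1, 99.0% and 98.9% for ENO1, and 41.4% and 28.6% for PDK1. Depth limits CA9, EGLN3 and ADM most, the members with the fewest reads.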
